A study of Mus musculus with 6 samples.

Results

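The vacuolar proton pump (V-ATPase) is described here through 10 of its subunit genes, taken by name from a table of 39017 gene identifiers. All 10 were found once each, and all 10 passed the filter on low counts. They are Atp6v1a, Atp6v1b2, Atp6v1c1, Atp6v1e1 and Atp6v1h of the soluble V1 sector, and Atp6v0a1, Atp6v0a2, Atp6v0b, Atp6v0c and Atp6v0d1 of the membrane V0 sector. The libraries came from hippocampus of female C57BL/6 mice carrying Tmem119-Cre and RiboTag. The labels used here give no age. RiboTag is a modified Rpl22 allele: once Cre has acted, this ribosomal protein carries an HA tag, here in cells that use the promoter of the microglial gene Tmem119. Ribosomes were collected with anti-HA magnetic beads for 3 libraries (IP), and 3 libraries were made without antibody (input). All 6 libraries share the genotype, and no library of beads on tissue without the tag was analysed here. Libraries are numbered by title code, and a code joins 1 IP and 1 input library. Nothing in the labels says in words that the codes are different animals, and p-values cover only the spread among these specimens.

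The V-ATPase is a rotary pump that spends ATP to move protons into lysosomes, endosomes, the Golgi and secretory or synaptic vesicles. V1 hydrolyses ATP in the cytosol, and V0 carries protons across the membrane. In phagocytes the acid it makes activates lysosomal proteases, while in neurons the gradient drives transmitter into synaptic vesicles. Several subunits exist in alternative forms encoded by separate genes, and the form of subunit a is known to influence which membrane the pump serves. Genes of the pump and of lysosomal enzymes are known to be activated by TFEB and related factors, which bind a DNA element with the core CACGTG.

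Input held 18448897 to 20422140 counts per library and IP 10757351 to 18558497. The labels name microglia as the cell type of both groups, but the summed level of 10 microglial markers was 487 to 612 CPM (read counts scaled to library size with TMM factors) in input and 32960 to 41190 CPM in IP. That of 10 neuronal markers was 7952 to 8688 CPM in input and 1026 to 1086 CPM in IP, so input held mostly other cells of the tissue and IP was not free of their RNA. Tmem119 rose from 26.2 ± 2.39 to 2236 ± 162 CPM (SD, n = 3 each). Rpl22, the gene of the tagged protein, was at 66.0 ± 3.04 CPM in input but 69.5 ± 13.3 CPM in IP (edgeR log2 fold 0.07, SE 0.19, adjusted p = 0.78). Markers of endothelium were called higher for 5 of 7 genes, beside 23.8% of all genes tested. Their summed CPM was 13.3 to 50.2 in input and 138 to 249 in IP. None of 7 choroid plexus markers was called. Their sum was 3813, 2689 and 28.2 CPM in input libraries 1, 2 and 3, and 630, 501 and 11.2 CPM in the IP libraries, so library 3 of both groups stood apart. Because these are bulk libraries, fewer cells of a type and less RNA per cell cannot be told apart.

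Promoter sequence was present in the RefSeq-derived table (GRCm38.p6) for 6 of the 10 genes. It covered 8 windows running from 250 bases before to 50 bases after a start site. Atp6v0a2, Atp6v1b2, Atp6v1c1 and Atp6v1h had no window there and were not searched. The core CACGTG, which reads the same on both strands, was found in 3 of the 8 windows, 1 each of Atp6v0b, Atp6v0d1 and Atp6v1a. Over all 32851 promoter windows of that length, 7.15% hold it. The CLEAR palindrome, a 10-base extension of that core, was in no window of these genes and in 0.326% of all windows, and the AP-1 element TGACTCA, searched on both strands, was in no window of these genes and in 5.2% of all. The 3 promoters with the core are shown because the genes include the pump gene with no call between IP and input and a pair that fell in IP. Each runs from 150 bases before to 10 bases after the start site, 5′ to 3′, with the core in capitals.
Atp6v0b, chr4:117887320-117887479, minus strand: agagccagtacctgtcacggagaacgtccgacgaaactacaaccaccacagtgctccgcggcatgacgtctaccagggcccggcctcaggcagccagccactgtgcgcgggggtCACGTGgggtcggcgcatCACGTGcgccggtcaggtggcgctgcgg
Atp6v0d1, chr8:105566055-105566214, minus strand: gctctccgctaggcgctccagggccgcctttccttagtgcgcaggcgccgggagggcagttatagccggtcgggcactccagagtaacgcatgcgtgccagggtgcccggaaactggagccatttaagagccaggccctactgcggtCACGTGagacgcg
Atp6v1a, chr16:44139250-44139409, minus strand: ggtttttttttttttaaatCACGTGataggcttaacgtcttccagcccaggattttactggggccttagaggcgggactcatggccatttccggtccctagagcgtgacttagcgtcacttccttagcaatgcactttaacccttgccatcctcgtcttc
Atp6v0b holds the core 2 times, starting 36 and 18 bases before the start site. In Atp6v0d1 it starts 3 bases before that site and spans it, and in Atp6v1a it starts 131 bases before it. The window shown for Atp6v1a lies within the annotated span of the gene (44085402 to 44139705), so its start site is not the outermost one annotated. These are matches of letters, and no binding was measured.

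Most of the pump genes were lower in the precipitate than in the tissue, and 1 was higher. Of the 10 genes, 8 fell in IP, 1 rose (Atp6v0a2) and 1 was not called (Atp6v0b), by edgeR's quasi-likelihood test with Benjamini-Hochberg adjustment over 16196 genes. Among all genes tested, 23.9% were called lower and 23.8% higher. The 8 lower genes kept 27.0% to 58.1% of their input level in IP (log2 fold -1.89 to -0.78). The median log2 fold of the 10 genes was -1.31, against -0.10 over all genes tested. In 9 of the 10 genes the IP and input libraries did not overlap, 8 with IP below and 1 with IP above. Among all genes tested, 32.9% did not overlap with IP below and 29.0% with IP above.

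**Figure D1:**
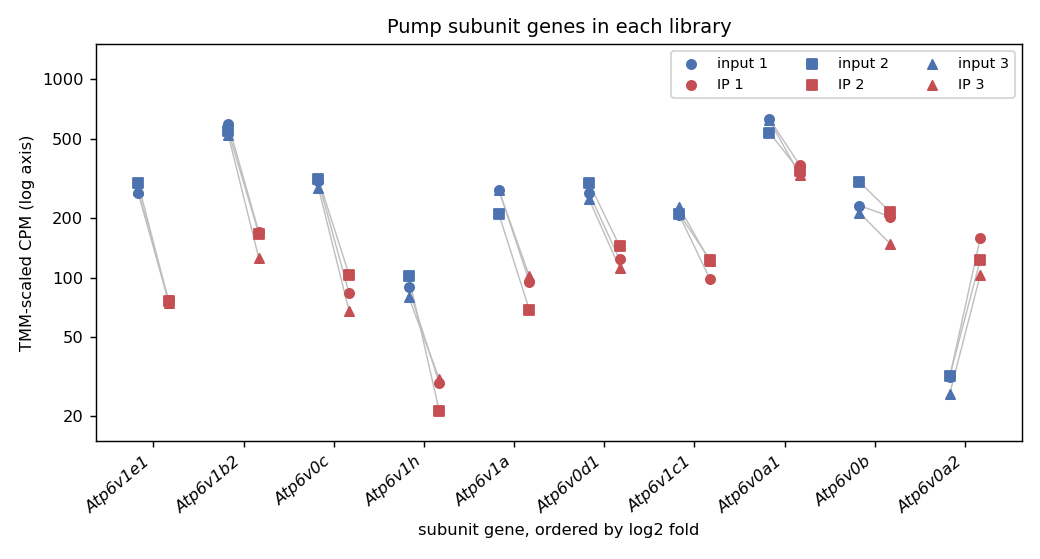
TMM-scaled CPM on a log axis for each of the 10 genes in each library, ordered by log2 fold. Blue marks are input, red marks are IP, the shape gives the library number and grey lines join the libraries of a title code. The IP libraries of Atp6v0a2 (103 to 159 CPM) lie above its input libraries (25.9 to 31.9 CPM), and only Atp6v0b has groups that overlap.

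Atp6v1a and Atp6v1b2 encode the A and B subunits, which together form the ring that binds and splits ATP. Atp6v1b2 (ENSMUSG00000006273, GRCm38 chromosome 8, 69088646 to 69113711, plus strand) stood at 593, 548 and 524 CPM in input libraries 1, 2 and 3, while the IP libraries in the same order read 169, 166 and 125 CPM. Every IP library was below every input library, and the gene fell by 1.86 on the log2 scale (SE 0.16, edgeR adjusted p = 1.4e-05). Atp6v1a was at 277, 209 and 276 CPM in input but 95.3, 68.7 and 101 CPM in IP. Library 2 was the lowest of its group in both input and IP, and the log2 fold was -1.52 (SE 0.20, edgeR adjusted p = 0.00017). Atp6v1b2 has a paralog of specialised acid-secreting epithelia, Atp6v1b1, which had 7 counts in input library 2 and none elsewhere.

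Atp6v1e1 encodes subunit E of the peripheral stalks that hold V1 still while the rotor turns. It had the lowest fold of the 10 genes and the narrowest spread in IP, at 268, 300 and 276 CPM in input libraries 1, 2 and 3 against 76.7, 75.8 and 74.8 CPM after precipitation (edgeR log2 fold -1.89, SE 0.14, adjusted p = 4.4e-06). Its span overlaps Slc25a18 on the opposite strand, which went from 56.1 to 9.30 CPM, and the strand setting used in counting is not known. Atp6v1h encodes subunit H, needed for the activity of the assembled pump, and had the lowest counts of the V1 genes here. It was at 89.2, 102 and 80.1 CPM in input but 29.5, 21.3 and 30.9 CPM in IP, a log2 fold of -1.73 (SE 0.21, edgeR adjusted p = 0.00011). It overlaps Rgs20 on the opposite strand, at 23.4 CPM before and 2.91 CPM after precipitation. Atp6v1c1 encodes subunit C, which leaves and rejoins when V1 and V0 come apart and reassemble. It fell less, from 207, 210 and 227 CPM to 98.8, 123 and 121 CPM (edgeR log2 fold -0.91, SE 0.15, adjusted p = 0.00081). The log2 differences of the 3 pairs ran from -1.07 to -0.77 for Atp6v1c1 and from -2.23 to -1.36 for Atp6v1h.

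The V0 genes were more mixed than the V1 genes. All 5 V1 genes fell, with log2 folds of -1.89 to -0.91, while of the 5 V0 genes 3 fell, 1 rose and 1 was not called, with folds of -1.82 to 2.11. Over all genes tested, 23.9% were called lower and 23.8% higher, and whether the sectors differ was not tested. Atp6v0c encodes the c proteolipid of the proton-carrying rotor and had the lowest V0 fold. It stood at 306, 313 and 284 CPM in input libraries 1, 2 and 3 against 83.4, 103 and 68.2 CPM after precipitation (edgeR log2 fold -1.82, SE 0.18, adjusted p = 2.9e-05). Processed pseudogenes of Atp6v0c are annotated, so its counts are uncertain to that extent. Atp6v0d1 encodes subunit d, the link between rotor ring and V1. It went from 267, 300 and 249 CPM to 123, 144 and 112 CPM, with a log2 fold of -1.11 (SE 0.16, edgeR adjusted p = 0.00032).

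Atp6v0b encodes the other proteolipid of the rotor ring, c″, and lay closer to its input level than Atp6v0c, a difference that was not tested. Atp6v0b (ENSMUSG00000033379, GRCm38 chromosome 4, 117884326 to 117887333, minus strand) stood at 230, 303 and 212 CPM in input libraries 1, 2 and 3, against 203, 214 and 148 CPM after precipitation. IP library 2 lay above input library 3, so the groups overlapped, although IP was lower within each of the 3 pairs. The log2 fold was -0.40 (SE 0.20, edgeR adjusted p = 0.12). With the title code as a block the fold was the same and the gene was called lower (log2 fold -0.40, edgeR adjusted p = 0.042), where 23.4% of all genes were called lower. With a correction for transcript length it was 0.02 (edgeR adjusted p = 0.91), and this gene has the shortest longest transcript of the 10, at 1000 bases. That correction left 8 of the 10 pump genes lower and 1 higher, where 24.1% of all genes were called lower. An antisense gene that overlaps it, Gm12841, was at 5.03 CPM before and 4.70 CPM after precipitation.

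Subunit a, which forms the channel path for protons, showed both directions. Atp6v0a1 (ENSMUSG00000019302, GRCm38 chromosome 11, 101009452 to 101063719, plus strand) encodes the a1 form, known from synaptic vesicles and neuronal endosomes. It stood at 629, 537 and 620 CPM in input libraries 1, 2 and 3, against 367, 343 and 328 CPM after precipitation. All IP libraries were below all input libraries, and the log2 fold was -0.78 (SE 0.14, edgeR adjusted p = 0.0012), the smallest fall of the 8. Atp6v0a2 (ENSMUSG00000038023, GRCm38 chromosome 5, 124628576 to 124724455, plus strand) encodes the a2 form, known from endosomes and the Golgi, where its loss in humans causes a disorder of glycosylation with loose skin. It was at 31.5, 31.9 and 25.9 CPM in input but 159, 123 and 103 CPM in IP. Every IP library was above every input library, and the log2 fold was 2.11 (SE 0.21, edgeR adjusted p = 3.0e-05), with pair differences of 1.93 to 2.32.

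The a3 form is encoded by Tcirg1, known from lysosomes of macrophages and from the acid-secreting membrane of osteoclasts. Tcirg1 (ENSMUSG00000001750, GRCm38 chromosome 19, 3896050 to 3907133, minus strand) rose more than Atp6v0a2. It stood at 4.10, 7.76 and 4.21 CPM in input libraries 1, 2 and 3 against 73.3, 103 and 66.8 CPM after precipitation (edgeR log2 fold 3.92, SE 0.33, adjusted p = 1.1e-05). Atp6v0a4, the form of kidney and inner ear, had 87 counts in input and 64 in IP and was not called (edgeR adjusted p = 1.0).

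The makeup of subunit a reads was compared next. Counts were divided by the longest annotated transcript of each gene and expressed as a share of the 4 genes, a quantity on which the scaling of a library has no effect. Atp6v0a1 held 95.3%, 93.7% and 95.5% of these reads per kilobase in input libraries 1, 2 and 3 and 61.8%, 59.1% and 65.2% in IP. Atp6v0a2 held 3.71%, 4.33% and 3.10% in input and 20.8%, 16.5% and 16.02% in IP. Tcirg1 held 0.850%, 1.85% and 0.886% in input and 16.9%, 24.4% and 18.2% in IP. The groups did not overlap for any of these 3 genes. The difference of IP minus input was -32.7 percentage points for Atp6v0a1, 14.1 for Atp6v0a2 and 18.6 for Tcirg1, each with a two-sided exact permutation p of 0.1, the smallest that 3 libraries against 3 can give (0.13 adjusted over the 4 genes). Atp6v0a4 held 0.286% ± 0.245 in input and 0.338% ± 0.280 in IP (SD, n = 3 each; exact permutation p = 1.0). Atp6v0a1 was still the gene with the most subunit a reads per kilobase in every IP library. Which of the other two gained more depends on the lengths: in raw counts without division by length, the difference was 18.1 percentage points for Atp6v0a2 and 13.7 for Tcirg1, with mean IP shares of 22.9% and 14.6%. With the union of exons as length it was 16.5 and 18.4 points.

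**Figure D2:**
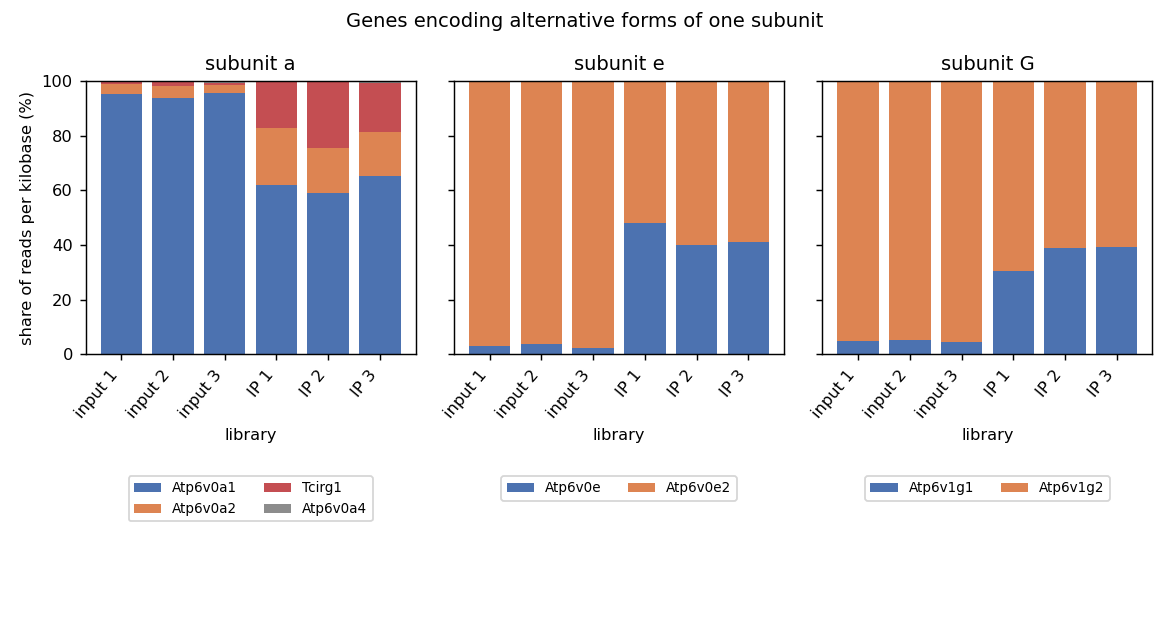
Share of reads per kilobase (percent) held by each gene that encodes a form of subunit a, e or G, as stacked bars for the 3 input and 3 IP libraries. Atp6v0a1, Atp6v0e2 and Atp6v1g2 held over 90% in every input library and 52.0% to 69.6% in every IP library.

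Of 16 other genes of pump subunits and accessory proteins, 12 passed the filter on counts, and 2 rose, 6 fell and 4 were not called. Their median log2 fold was -0.42. Over all genes tested, 23.8% were called higher and 23.9% lower. The 2 genes of this list with the lowest folds are both forms enriched in brain. Atp6v1g2, the brain form of the stalk subunit G, fell from 1245 ± 76.1 to 142 ± 11.6 CPM (SD, n = 3 each), a log2 fold of -3.13 (SE 0.15, edgeR adjusted p = 3.2e-07). Its widely expressed counterpart Atp6v1g1 was at 37.3 ± 1.26 CPM before and 48.9 ± 8.41 CPM after precipitation, and was not called (edgeR log2 fold 0.39, SE 0.20, adjusted p = 0.15). It was called higher after the length correction (log2 fold 0.81, edgeR adjusted p = 0.011), where 23.2% of all genes were. Atp6v0e2, the brain form of the small membrane subunit e, fell from 583 ± 14.3 to 55.5 ± 9.85 CPM (edgeR log2 fold -3.39, SE 0.18, adjusted p = 5.2e-07). Its counterpart Atp6v0e rose from 28.4 ± 5.76 to 64.9 ± 1.25 CPM (edgeR log2 fold 1.19, SE 0.21, adjusted p = 0.0011).

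The G and e shares were computed after these folds were seen and are given without a test. Atp6v1g1 held 4.74% ± 0.418 of subunit G reads per kilobase in input and 36.3% ± 5.07 in IP (SD, n = 3 each). Its mean shares without division by length were 2.915% in input and 25.65% in IP. Atp6v0e held 3.005% ± 0.598 of subunit e reads per kilobase in input and 43.0% ± 4.37 in IP. In raw counts without division by length, Atp6v0e held 54.1% in IP and Atp6v0e2 45.9%, so which of the pair led in IP depends on the lengths. Second genes of the other subunits had few or no counts. Atp6v1e2 had 17 counts, all in input library 3. Atp6v0d2, the form of osteoclasts, and Atp6v1g3 had none in any library. That allows up to 0.147 to 0.279 CPM per library (3 counts over the raw library total, without TMM factors, counting error only). Atp6v1c2 had 0, 0 and 26 counts in IP libraries 1, 2 and 3 and was not called, with its log2 fold at 0.39 with all libraries and -6.48 without IP library 3.

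The remaining subunits lay between these extremes. Atp6v1d, the central shaft that turns with the rotor, fell by 2.15 on the log2 scale (SE 0.20, edgeR adjusted p = 2.1e-05). Atp6v1f, another shaft subunit, was at 107 ± 12.5 and 72.1 ± 14.8 CPM and was called lower (edgeR log2 fold -0.57, SE 0.19, adjusted p = 0.034). That call was lost without input library 1 or 2, without IP library 1 or 3, without pair 1 or 3 (edgeR adjusted p = 0.077 to 0.19) and after the length correction (log2 fold -0.11, edgeR adjusted p = 0.58). Atp6ap1, an accessory protein that guides assembly, was at 436 ± 22.8 and 363 ± 46.8 CPM and was not called (edgeR log2 fold -0.26, SE 0.15, adjusted p = 0.17), but was called lower on library totals alone (log2 fold -0.37, edgeR adjusted p = 0.043). Atp6ap2, the prorenin receptor, fell by 0.67 (SE 0.16, edgeR adjusted p = 0.0080), a call lost without pair 1 (edgeR adjusted p = 0.051) or pair 3 (edgeR adjusted p = 0.054). Rnasek fell by 1.06 (SE 0.18, edgeR adjusted p = 0.0011), and a same-strand gene model, Gm21988, overlaps it. Gm21988 went from a mean of 293 CPM in input to 201 CPM in IP (edgeR log2 fold -0.54, adjusted p = 0.022).

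**Figure D3:**
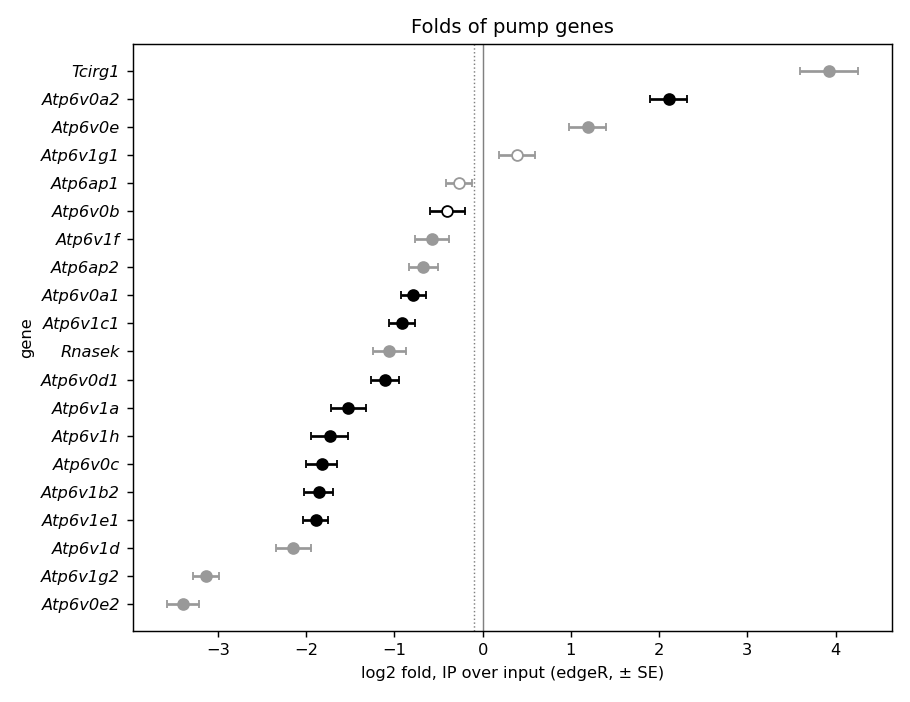
Log2 fold of IP over input with its standard error, from edgeR, for the 10 pump genes (black) and for the other pump subunit genes with at least 1000 counts in all (grey). Filled points are called and open points are not. The dotted line is the median of all genes tested, -0.10. Tcirg1, Atp6v0a2 and Atp6v0e are the called genes to the right of 0, and Atp6v0e2 and Atp6v1g2 lie farthest to the left.

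Levels per kilobase of the longest transcript place the genes in an order within each group. In input, Atp6v0b led at 249 CPM per kb, followed by Atp6v1b2 at 196, Atp6v0d1 at 167, Atp6v0a1 at 143, Atp6v0c at 117, Atp6v1e1 at 96.0, Atp6v1a at 60.0, Atp6v1c1 at 43.6, Atp6v1h at 18.7 and Atp6v0a2 at 5.57 CPM per kb. No adjacent genes in that order had overlapping libraries. In IP, Atp6v0b again led at 188 CPM per kb, followed by Atp6v0a1 at 83.1 and Atp6v0d1 at 77.6 CPM per kb, which overlapped each other. Atp6v1e1, Atp6v0a2, Atp6v1c1 and Atp6v1a followed Atp6v1b2 and Atp6v0c at 20.9 to 25.9 CPM per kb, with neighbours overlapping, and Atp6v1h was last at 5.64 CPM per kb. Atp6v0a2 thus stood 10th in input and 7th in IP. The expressed transcript need not be the longest: with the union of exons as length, Atp6v0d1 led in input at 152 CPM per kb and Atp6v0b was next at 121. Summed over the 10 genes, the level was 1096 ± 58.7 CPM per kb in input and 536 ± 61.0 CPM per kb in IP (SD, n = 3 each).

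The summed level of the pump genes was set beside that of markers of other cells, without a test of the difference. The 10 genes together kept 48.4%, 48.4% and 43.7% of their input CPM in pairs 1, 2 and 3. The 10 neuronal markers kept 12.7%, 13.7% and 11.8%, the 8 astrocyte markers 24.9%, 25.2% and 20.9% and the 8 oligodendrocyte markers 16.9%, 18.5% and 17.9%. Gene by gene the pump and neuronal folds overlapped. Neuronal markers had log2 folds of -3.81 to -1.69. Of the 8 lower pump genes, 4 had folds in that range and 4, Atp6v0a1, Atp6v1c1, Atp6v0d1 and Atp6v1a, fell by less than every neuronal marker. Astrocyte markers had folds of -3.42 to -0.52, a range that holds all 8 lower pump genes, and 1 of these markers was not called. Oligodendrocyte markers had folds of -4.05 to -1.43. No marker of these cell types was at 0 in an IP library. The part of RNA from other cells in the IP level of the pump genes was not tested.

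**Figure D4:**
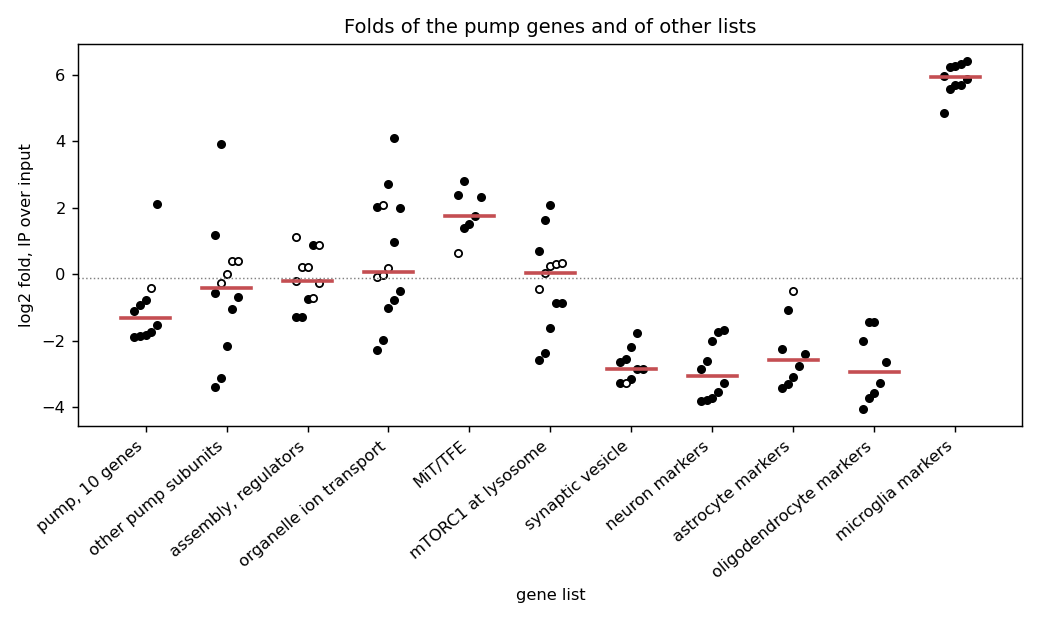
Log2 fold of IP over input for each tested gene of the pump, of related lists and of cell type markers. Filled points are called by edgeR and open points are not, red bars are list medians and the dotted line is the median of all genes tested, -0.10. Pump genes have a median of -1.31, synaptic vesicle genes -2.84 and genes of the MiT/TFE list 1.77.

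Genes that act with the pump moved in both directions. Among 7 tested genes of the MiT/TFE factors and their regulators, 6 rose and none fell (median log2 fold 1.77). Over all genes tested, 23.8% were called higher and 23.9% lower. Tfeb, the factor best known for activating lysosomal genes, rose from 10.2 ± 2.73 to 70.8 ± 12.2 CPM (SD, n = 3 each; log2 fold 2.80, SE 0.27, edgeR adjusted p = 2.3e-05), and its relative Tfe3 from 45.7 ± 1.96 to 240 ± 51.1 CPM (edgeR log2 fold 2.39, SE 0.19, adjusted p = 7.5e-06). Flcn, folliculin, which controls where these factors reside, rose by 1.38 on the log2 scale (SE 0.20, edgeR adjusted p = 0.00035). Of 9 tested synaptic vesicle genes, 8 fell and none rose (median -2.84), beside the same 23.9% lower over all genes. Slc17a7, the vesicular glutamate transporter of forebrain neurons, went from 2579 ± 518 to 440 ± 78.4 CPM, and Vamp2, a vesicle fusion protein, from 2101 ± 138 to 335 ± 26.9 CPM. Slc32a1, the vesicular GABA transporter, had a log2 fold of -3.28, or -4.27 without IP library 2. The uncalled gene was Slc17a6, with 365 counts in input and 22 in IP (edgeR adjusted p = 0.092, or 0.0047 without IP library 2).

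A list of 14 tested genes covered ion channels, exchangers and accessory proteins of lysosomes and endosomes. Of these, 5 rose, 5 fell and 4 were not called (median log2 fold 0.07), beside 23.8% higher and 23.9% lower over all genes tested. The lower count was 3 without input library 1 or 2, IP library 1 or 3, or pair 3, and 2 without pair 1. Slc9a9, an endosomal sodium-proton exchanger, had the largest fold of the list, from 8.92 ± 3.10 to 154 ± 16.8 CPM (SD, n = 3 each; log2 fold 4.10, SE 0.29, edgeR adjusted p = 3.1e-06). Tmem206, now also called Pacc1, a chloride channel opened by protons, rose by 2.72 (SE 0.29, edgeR adjusted p = 4.6e-05), and Tpcn1, a 2-pore cation channel, rose by 2.03 (SE 0.21, edgeR adjusted p = 4.0e-05). Clcn4 was at 122 ± 14.8 and 115 ± 11.1 CPM and was not called (edgeR adjusted p = 0.70). Of 11 tested assembly factors and regulators of the pump, 1 rose, 3 fell and 7 were not called (median -0.19), beside the same 23.8% higher and 23.9% lower. The higher gene, Ccdc115, an assembly factor named after its value was seen, had a log2 fold of 0.87 (SE 0.24, edgeR adjusted p = 0.014). The list had 0 higher calls without input library 1, IP library 1, pair 1 or pair 3, 2 without IP library 2 or pair 2, and 1 lower call without pair 1. Tmem199, an assembly factor of the endoplasmic reticulum, fell by 1.29 (SE 0.22, edgeR adjusted p = 0.00094), as did Ncoa7, which binds the pump through a TLDc domain (SE 0.32, edgeR adjusted p = 0.0087, or 0.062 without pair 1). Rogdi and Wdr7, which belong to the complex that rejoins V1 and V0, were not called, at log2 folds of -0.26 and -0.19. After the length correction Wdr7 was called lower (log2 fold -0.65, edgeR adjusted p = 0.010) and Rogdi was at 0.07. Of 13 genes of mTORC1 and its lysosomal anchor, 3 rose, 5 fell and 5 were not called (median 0.03), beside 23.8% higher and 23.9% lower over all genes. The lower calls were 3 without pair 1. The higher calls were 2 without input library 1, 2 or 3, IP library 1 or 2, or pair 1 or 2. They were also 2 on library totals alone. No share over all genes is given for counts with a library or pair left out. Rptor, the subunit that recruits mTORC1 substrates, rose from 65.9 ± 9.40 to 282 ± 40.8 CPM (edgeR log2 fold 2.10, SE 0.18, adjusted p = 1.2e-05). Of the 4 Rag GTPase genes, whose products hold mTORC1 at lysosomes, Rraga, Rragb and Rragd fell, with log2 folds of -1.62, -2.38 and -2.59, and Rragd was at -3.17 without pair 2. The fourth, Rragc, named after its values were seen, was not called (log2 fold 0.24, SE 0.15, edgeR adjusted p = 0.22). It was at 84.5 ± 4.74 and 99.7 ± 4.76 CPM, with every IP library above every input library and the highest CPM of the 4 genes in IP.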

How the data were processed

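RNA of hippocampus was measured in 3 input and 3 IP libraries, grouped by sample title. Per the labels' protocols, mRNA was enriched and a stranded kit was used. Tools named by the submitters' processing notes are Trimmomatic, FastQC and bcl2fastq 2.17, and the build is mm10. An aligner, a counter, its strand setting and an annotation release were not given in the sources. What the authors deposited are raw read counts for each gene, all of them whole numbers. All 6 columns were used. GENCODE M21 (GRCm38, also called mm10) named 37693 of 39017 identifiers; the other 1324 held 0.404% to 0.464% of a library's counts and were kept.

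IP was tested against input with edgeR 4.0.16 (R 4.3.3, quasi-likelihood, TMM, filterByExpr with a minimum count of 10, robust, no block) on all genes, with Benjamini-Hochberg adjustment and calls below 0.05. SE comes from the F statistic. CPM are TMM-scaled, pair differences are of log2(CPM + 0.5), and levels per kilobase use the longest annotated transcript. The test was checked on simulated counts in which few genes changed, equally in both directions. That check does not cover a comparison with as many changes as here. Within a group, pairs of libraries had a chi-square of 24.1 to 48.0 per degree of freedom, so none agreed within sampling noise.

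Pairs share a title code, taken as 1 specimen. Deviations from the group means of 11180 genes correlated at 0.06, 0.25 and 0.18 within codes and -0.20 to 0.03 between codes. Intervals and floors cover counting error only.

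The pump genes and all lists were chosen with earlier results of these data known. Named genes were the 10 pump genes and tested genes of the other subunit list. Per further list, they were the 2 highest in CPM and the 2 with the largest absolute fold. Tmem119, Rpl22 and the 5 genes whose log2 CPM correlated most with that of Atp6v0a2 were also named. Overlapping genes, Ccdc115 and Rragc were chosen after their values were seen. Of the listed synaptic vesicle genes, Slc18a3 was not analysed here. Alternatives were size factors, library totals, other filters, DESeq2 1.42.0, limma-voom (limma 3.58.1), the block, leaving out libraries or pairs, thinning, a 2-fold minimum and a length correction, the last also with the block, an addition made after seeing the data. Tables and plots used Python 3.11.15, pandas 2.3.3, NumPy 2.4.6 and Matplotlib 3.10.9.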

Additional observations from a re-analysis of the deposited data

How the results depend on the processing

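Of the 10 pump genes, 8 were called lower and Atp6v0a2 higher in every alternative that left out a library or a pair (8 to 8 lower, 1 to 1 higher). With a 2-fold minimum 5 were called lower, and Atp6v0a1, Atp6v0d1 and Atp6v1c1 were not; among all genes 12.5% were then called lower. With the title code as a replicate block 9 were lower, since Atp6v0b was added. With that block the pathway lists had 18 higher calls, and the difference in the share of Atp6v0a1 stayed at -32.7 percentage points with an exact p of 0.25, the smallest that 3 pairs can give. Of 66 tested genes of the pathway lists 17 (25.8%) were higher and 27 (40.9%) lower, beside 23.8% and 23.9% of all genes. Of the lower calls, 8 came from the 9 tested synaptic vesicle genes. With a 2-fold minimum the pathway lists had 11 higher and 16 lower calls, beside 13.4% and 12.5% of all genes. Without a library or pair they had 15 to 18 higher and 18 to 27 lower calls, the lowest without pair 1. Scaling by library totals alone moved the median fold of all genes by -0.10. Corrected for length, Atp6v0b had a log2 fold of 0.0224, or 0.0268 with the block, and Rogdi 0.068, or 0.0638. Clcn4 ranged from -0.2124 to 0.035 with a library or pair left out. For 2 genes of low count the sign was unstable. Atp6v0a4 was at -0.0382 on library totals, -0.30 with limma-voom, -0.44 with the block, -0.39 with block and length correction, and between -0.63 and 0.99 with a library or pair left out. Atp6v1c2 was at -2.10 with limma-voom, -3.23 with the block, -2.97 with block and length correction, and between -6.78 and 1.21 with a library or pair left out. The causes were not tested. Of 817 recomputed folds of 41 named genes, 768 kept direction and side of the threshold. Without division by length the share difference was -31.9 percentage points for Atp6v0a1, 18.1 for Atp6v0a2 and 13.7 for Tcirg1, and with the union of exons -34.9, 16.5 and 18.4. With a single library left out, it was -34.3 to -31.3 percentage points for Atp6v0a1, 12.5 to 14.9 for Atp6v0a2 and 16.4 to 20.1 for Tcirg1. Shares without a pair were not computed.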

Other observations

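Correlation of log2 CPM with Atp6v0a2 over the 6 libraries was computed for 11179 genes with a mean log2 CPM of at least 3. The highest were Pdia3, Gpr84, Ifi30, P4hb and Fndc3b, with Pearson correlations of 0.999, 0.998, 0.998, 0.997 and 0.997. Such a correlation compares neither level nor size of change. Pdia3 and P4hb encode protein disulfide isomerases of the endoplasmic reticulum, Ifi30 a thiol reductase of lysosomes, and Gpr84 a receptor of myeloid cells. All 5 were called higher in IP. Their log2 folds were 1.59 for Pdia3, 5.71 for Gpr84, 5.01 for Ifi30, 1.93 for P4hb and 3.37 for Fndc3b. The libraries fall into the IP and input groups, and 1632 of these genes had a correlation of at least 0.95, so the values describe the list and carry no test.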
